A study of Mus musculus with 3 samples.

Results

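The let-7 family is a group of microRNAs, short RNAs that repress messenger RNAs by base pairing. Its 9 members here were the 5p arms, the strands cut from the left side of the hairpin precursors, that share the let-7 seed. They were taken by name from the count files, and all 9 were among the 1908 listed mature microRNAs, of which 851 had at least 1 read in some library. All 9 had reads in every library, so none was lost to the filter on low counts.

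Livers came from male C57BL/6J mice of 8 to 10 weeks, an inbred strain, with 1 small RNA library per group. The Sham mice had their abdomen opened without any occlusion of vessels. In the WI (warm ischemia) mice, the vessels and bile duct that enter the left and median lobes were clamped, and the liver was taken before blood returned. In the IR (ischemia-reperfusion) mice the clamp was removed and blood flowed again before the liver was taken. All mice were anesthetised with chloral hydrate after a fast. Sham livers were taken after a wait equal to the occlusion, so IR livers were taken later after surgery than the others, and reperfusion cannot be told apart from that added time. Whether a library held RNA of 1 mouse or of several was not stated. No value below has a replicate, and each p-value compares the reads of 2 libraries, not 2 conditions.

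The seed, bases 2 to 8 of a microRNA, pairs with target messenger RNAs, so microRNAs with 1 seed can repress overlapping sets of targets. Let-7 was found in worms as a switch from larval to adult cell fates. In mammals it is abundant in differentiated adult tissue, the liver included, and represses growth genes such as those of the RAS and HMGA2 proteins. The protein LIN28 binds let-7 precursors in embryonic cells and blocks their maturation.

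All 9 mature sequences were matched in RefSeq (build GRCm38.p6). They are shown whole because the members differ by so few bases. Capitals mark the seed, which is identical in all members.
mmu-let-7a-5p: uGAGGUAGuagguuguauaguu
mmu-let-7b-5p: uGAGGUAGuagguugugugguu
mmu-let-7c-5p: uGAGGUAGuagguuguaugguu
mmu-let-7d-5p: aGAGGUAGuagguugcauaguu
mmu-let-7e-5p: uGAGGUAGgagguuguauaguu
mmu-let-7f-5p: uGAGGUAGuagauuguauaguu
mmu-let-7g-5p: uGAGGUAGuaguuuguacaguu
mmu-let-7i-5p: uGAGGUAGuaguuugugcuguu
mmu-miR-98-5p: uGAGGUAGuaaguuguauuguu
Each is 22 bases long, and no pair of members differs at more than 6 positions. Positions are counted from 1 at the 5′ end, with the base of the member named before it and the base of the other after it. Of the 36 pairs, 4 differ at a single base. From let-7a the change to let-7c is A19G, to let-7f it is G12A and to let-7e it is U9G, and from let-7b to let-7c it is G17A. A read that ends before base 19 cannot separate let-7a from let-7c. The authors allowed 1 mismatch in alignment and kept the best matches, so some reads may be listed under the wrong name among let-7a, let-7b, let-7c, let-7e and let-7f. These 5 held 80.4% (Sham), 81.0% (WI) and 80.3% (IR) of the family reads, and their separate levels are uncertain.

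The 9 members come from 12 hairpins on 7 chromosomes. Positions below are on the mm9 build, named in the methods of the study for the small RNA reads. Let-7a-1 (chr13:48633548-48633641), let-7f-1 (chr13:48633198-48633286) and let-7d (chr13:48631381-48631483) lie together, on the minus strand and outside protein-coding genes. Let-7f-2 (chrX:148346889-148346971) and mir-98 (chrX:148347757-148347864) both lie in introns of Huwe1, a ubiquitin ligase gene, on its strand. Let-7c-2 (chr15:85537033-85537127) and let-7b (chr15:85537749-85537833) are 621 bases apart, outside other genes. Let-7g (chr9:106081171-106081258) lies in an intron of Wdr82, a histone methyltransferase subunit gene. Let-7i (chr10:122422696-122422780) is outside other genes. Let-7a-2 (chr9:41344799-41344894), let-7c-1 (chr16:77599902-77599995) and let-7e (chr17:17967316-17967408) each neighbour hairpins of the mir-99, mir-100 or mir-125 kind. Let-7a-2 is in an intron of the long noncoding RNA D230004N17Rik, let-7c-1 in an intron of Gm11146 on the opposite strand, and let-7e outside protein-coding genes. The mature sequences of let-7a, let-7c and let-7f each match the genome exactly at 2 positions, so their counts join 2 hairpins. The other members have 1 position each.

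The WI library was the deepest with 5064014 microRNA reads, beside 3844133 (Sham) and 3784539 (IR). In the study, a smaller share of the small RNA reads aligned to the genome in IR than in Sham and WI. Levels are CPM, the reads of a microRNA in each 1000000 microRNA reads after scaling with TMM, which lines up the bulk of microRNAs between libraries. A floor of 3 reads corresponds to 0.617 to 0.785 CPM. Lists of marker microRNAs were followed for several cell types. The 4 of the hepatocyte list were the miR-122 arms, miR-192-5p and miR-194-5p. Together they took 27.5% (Sham), 27.4% (WI) and 26.3% (IR) of the reads. Most of this was miR-192-5p, with 243175 (Sham), 258042 (WI) and 236770 CPM (IR), while miR-122-5p had 15960, 18999 and 15364. Of the other marker lists, the summed level of 4 erythroid microRNAs was highest in IR, at 9020 CPM beside 5055 (Sham) and 4782 (WI). All 4 were higher in IR than in Sham. So were all 3 muscle rows, but miR-206-3p had only 1 read (IR) and 0 (Sham), and miR-1a-3p had 6 and 0. The 4 hepatocyte rows were only slightly lower, with log2 fold changes from -0.04 (miR-122-3p, Fisher's exact p = 0.243) to -0.08 (miR-194-5p). The leukocyte, endothelial and stromal rows went both ways. The 5 leukocyte rows, the miR-142 arms under their older names included, summed to 3084 (Sham), 3049 (WI) and 2798 CPM (IR). Only miR-223-3p (110, 109 and 236 CPM) and miR-142-3p (110, 152 and 119) of them were higher in IR than in Sham, and miR-142-5p, the most abundant, had 2735, 2672 and 2342 CPM. Without the miR-142 arms, the 3 other rows summed to 239, 224 and 337 CPM. The endothelial list was split between its arms, with 16311, 19832 and 14583 CPM for miR-126a-5p and 2956, 2951 and 2985 for miR-126a-3p. The stromal sum of 39670, 43072 and 35224 CPM was nearly all miR-143-3p (38597, 42013 and 34215), and 2 of its 5 rows were higher in IR than in Sham. The 3 muscle microRNAs summed to 6.82, 23.8 and 75.1 CPM, nearly all of it miR-133a-3p (6.82, 23.6 and 73.2). No marker in the files was at 0 in all libraries. Whether cell types shifted between the libraries, and any part of this in the let-7 values, was not tested. In whole liver, fewer cells of a type cannot be told apart from less RNA per cell.

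The let-7 family was largest in WI and smallest in IR as a share of all microRNA reads. It took 5.09% of the Sham library (95% Wilson interval 5.06 to 5.11), 5.34% of the WI library (5.32 to 5.36) and 4.44% of the IR library (4.42 to 4.46). The most abundant member, let-7f, had 23485 (Sham), 27048 (WI) and 18687 CPM (IR), and was the 10th most abundant microRNA of every library. Next came let-7a with 8576, 9977 and 8679 CPM. Both were highest in WI, and only let-7f was clearly lower in IR than in Sham. Let-7c had 6123, 6385 and 6443 CPM in the same order, and let-7g had 5856, 6508 and 4933 CPM, so let-7g was above let-7c in WI and below it in the other libraries.

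The remaining members were lower. Let-7i had 2189 (Sham), 2114 (WI) and 2114 CPM (IR), nearly level. Let-7b had 1235, 1330 and 1227 CPM, and let-7d had 1231, 1451 and 1163 CPM. In Sham, let-7b and let-7d were indistinguishable, with 4890 and 4874 reads, and every other pair of neighbours in the order differed beyond counting error in each library. MiR-98-5p had 408, 481 and 435 CPM. Let-7e was the lowest at 274, 293 and 267 CPM. Members were compared as mature RNAs of equal length, but adapters join some ends more readily than others, so the order is one of reads.

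**Figure D1:**
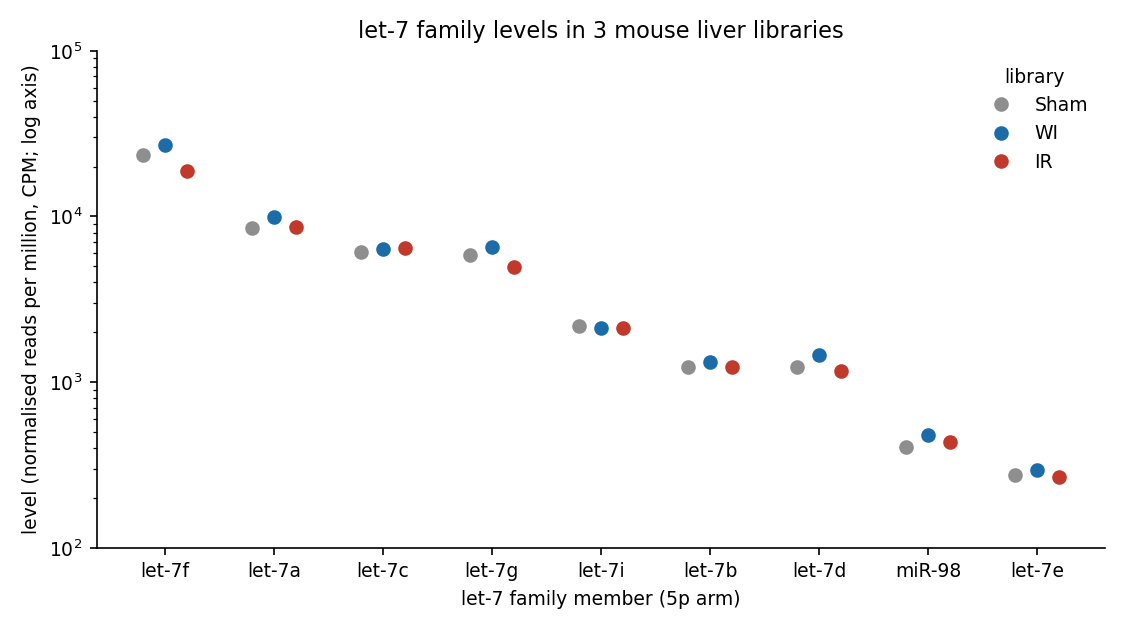
Level of each let-7 family member (5p arm, x axis) in TMM-scaled CPM (log axis) in the Sham, WI and IR libraries, 1 point per library. Let-7f lies between 18687 and 27048 CPM, and the members span from 267 to 27048 CPM. The libraries of let-7g enclose those of let-7c, and those of let-7d enclose those of let-7b.

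Ischemia alone was examined first, in WI versus Sham. None of the 9 members passed the criteria of the study, a fold change above 1.5 with a Fisher's exact p under 0.01, which 1.92% of all 782 tested microRNAs passed. At p under 0.01 without a fold limit, 7 members were higher in WI and 0 lower, and 7 also had a Benjamini-Hochberg adjusted p under 0.05 over all microRNAs tested. Abundant microRNAs pass that test easily. In either direction 12.3% of all tested did, but 53.7% of the 136 with at least 1000 reads over the 3 libraries. Of those 136, 47 were higher and 26 lower. The count of 7 higher and 0 lower held only with TMM. Library totals gave 5 higher and 2 lower, DESeq2 size factors and totals without the 10 most abundant each gave 5 higher and 1 lower, and aligned reads gave 9 higher. The median log2 fold change of the members was 0.15, against 0.05 for all tested microRNAs and 0.04 for those with at least 1000 reads.

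The upper end of the members in WI versus Sham was held by miR-98-5p, with 1616 reads in Sham and 2342 in WI (log2 fold change 0.24, SE 0.05 from the reads alone, Fisher's exact p = 3.10e-07). Let-7d, with 4874 and 7060 reads, had the same log2 fold change of 0.24 (SE 0.03). Let-7a, with 33960 and 48539 reads, had 0.22 (SE 0.01), and let-7f, with 93002 and 131590 reads, had 0.20 (SE 0.0062). Let-7g was at 0.15 and let-7b at 0.11. These 6 stayed positive with every scaling tried. Let-7c was at 0.06 but turned negative with library totals (-0.04) and with totals without the 10 most abundant microRNAs (-0.02). Let-7e, at 0.10, did not pass at p under 0.01 and was at -0.0050 with library totals. Let-7i, with 8667 and 10284 reads, was the only member below 0, at -0.05 (SE 0.02, Fisher's exact p = 0.0172), which does not pass. With 3 other scalings it did pass as lower, at -0.15 with library totals, -0.13 without the 10 most abundant and -0.09 with DESeq2 size factors, and it was at 0.11 with totals of reads aligned to the genome.

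Reperfusion was then compared with ischemia. Again 0 members passed both criteria in IR versus WI, where 9.25% of 789 tested microRNAs did. At p under 0.01 without a fold limit, 6 of 9 members were lower in IR and 0 higher, and 6 had an adjusted p under 0.05, while 18.9% of all tested and 61.8% of the 136 abundant microRNAs differed in either direction. Library totals gave 4 lower and 2 higher, the latter let-7c (0.09) and let-7i (0.07), and aligned reads gave 9 lower. The median of the members was -0.15 on the log2 scale, that of all tested microRNAs -0.01 and that of the abundant ones -0.03.

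The members were spread widely in this comparison. Let-7f had 131590 reads (WI) and 71460 (IR), and its log2 fold change was -0.53 (SE 0.0067), or 1.45-fold lower, just under the fold limit. Only 7 of the 136 abundant microRNAs had a lower value. Let-7g, with 31661 and 18862 reads, was at -0.40 (SE 0.01), and 12 of the 136 lay below it. Let-7d, with 7060 and 4449 reads, had -0.32 (SE 0.03), and let-7a, with 48539 and 33188 reads, had -0.20 (SE 0.01). The remaining members lay nearer to 0. MiR-98-5p was at -0.15 (SE 0.05, Fisher's exact p = 0.00162) and let-7b at -0.12 (SE 0.03). Let-7e, at -0.14 (SE 0.06), did not pass the p threshold (Fisher's exact p = 0.0214). Let-7c was at 0.01 (SE 0.01), and let-7i had 2114 CPM in both libraries. Both turned with the scaling: with totals of aligned reads let-7c was at -0.31, and with library totals let-7i was at 0.07.

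With totals of reads aligned to the genome, let-7f (-0.86), let-7g (-0.72) and let-7d (-0.64) passed both criteria in IR versus WI. That scaling moved the median of all tested microRNAs to -0.32 here, to 0.20 in WI versus Sham and to -0.09 in IR versus Sham. Relative to that median, let-7f was still the lowest member, since a change of scaling shifts all members alike.

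**Figure D2:**
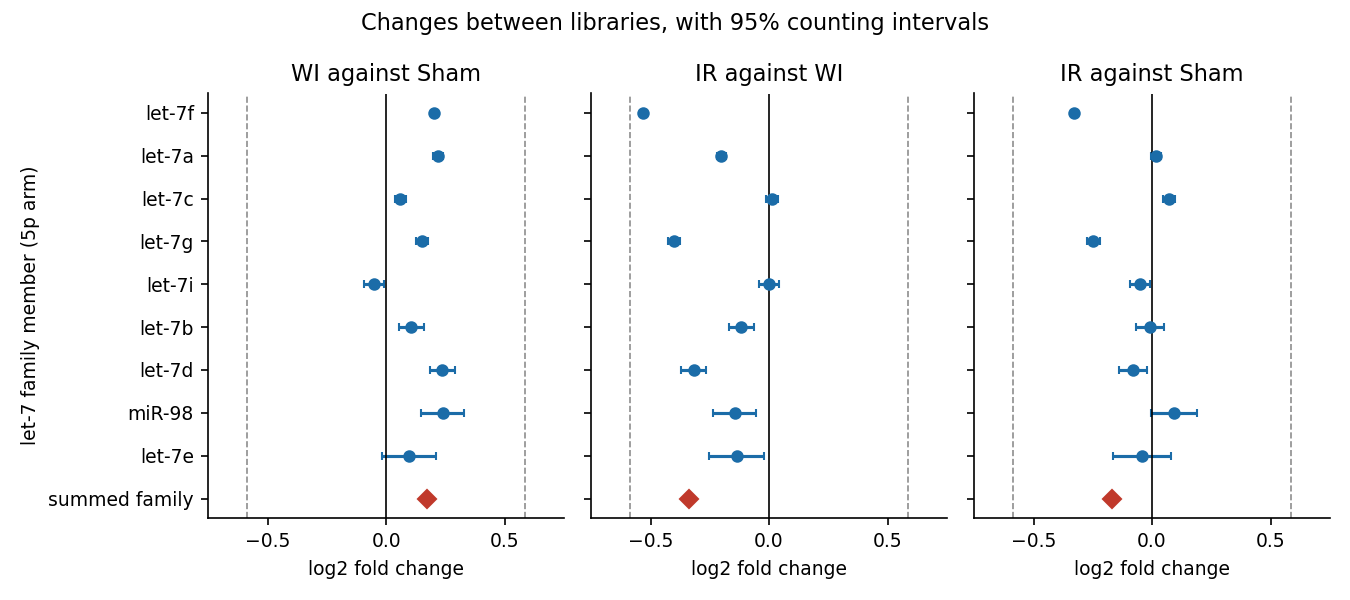
Log2 fold change (x axis) of each member and of the summed family (diamond) in the 3 comparisons, with 95% intervals from read counts only. Dashed lines mark the fold limit of 1.5. Let-7f and let-7g stand to the left of the other members in IR versus WI and IR versus Sham, and no point crosses a dashed line.

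Reperfusion was finally compared with Sham. This comparison shares its libraries with the other 2 and adds no new reads. In IR versus Sham, 0 members passed both criteria, against 7.11% of 774 tested microRNAs. At p under 0.01 without a fold limit, 3 members were lower and 1 was higher in IR, and 5 did not pass. An adjusted p under 0.05 was reached by 4. In either direction 16.0% of all tested and 58.1% of the abundant microRNAs passed at p under 0.01, the abundant ones with 38 higher and 41 lower. DESeq2 size factors and library totals each gave 4 lower and 1 higher, totals without the 10 most abundant gave 5 lower and 0 higher, and aligned reads gave 8 lower and 0 higher. The median of the members was -0.04, with 0.04 for all tested and 0.01 for the abundant microRNAs.

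Let-7f had 93002 reads (Sham) and 71460 (IR), and was 1.26-fold lower, or -0.33 (SE 0.0072) on the log2 scale. Let-7g had 23191 and 18862 reads and was at -0.25 (SE 0.01, Fisher's exact p = 2.63e-69). Only 10 of the 136 abundant microRNAs lay below let-7f and 18 below let-7g. Let-7d was at -0.08 (SE 0.03, Fisher's exact p = 0.00662). These 3 kept their sign with every scaling. Let-7c was higher in IR, at 0.07 (SE 0.01), except with totals of aligned reads (-0.09). The 5 that did not pass were miR-98-5p (0.09), let-7a (0.02), let-7b (-0.0092), let-7e (-0.04) and let-7i (-0.05). Let-7a was below 0 with each of the other 4 scalings, from -0.0090 with DESeq2 size factors to -0.15 with aligned reads. MiR-98-5p was at -0.08 with aligned reads.

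Variation between mice was not measured and is not in these errors. With an assumed coefficient of variation of 0.1 between animals, edgeR's exact test gave 1 of the 27 member comparisons a p under 0.01, that of let-7f in IR versus WI (p = 0.00925), and let-7g there had p = 0.0512. With a coefficient of 0.2 none did, and the exact p of let-7f in IR versus WI was 0.195.

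The summed family followed its largest member. It stood at 49377 (Sham), 55588 (WI) and 43947 CPM (IR), highest in WI and lowest in IR. On the log2 scale WI lay 0.17 (SE 0.0043) above Sham, the value of IR versus WI was -0.34 (SE 0.0045) and that of IR versus Sham -0.17 (SE 0.0048). The 3 signs held with every scaling. Of these 3 differences in summed CPM, let-7f made up 57.4%, 71.8% and 88.4% and let-7g 10.5%, 13.5% and 17.0%, in the same order. Without let-7f, the sum was at 0.14 (SE 0.0059), -0.18 (SE 0.0060) and -0.04 (SE 0.0065). Without let-7f and let-7g, a pair left out after their values had been seen, it was at 0.14, -0.12 and 0.02 (SE 0.0073 for the last). With TMM the sum was thus not lower in IR than in Sham once those 2 of the 9 members were left out. The last value is smaller than the shift made by each of the other 4 scalings (-0.03 to -0.17), so its sign rests on TMM.

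Shares within the family do not depend on the scaling between libraries. Let-7f took 47.6% of the family reads of the Sham library (95% Wilson interval 47.3 to 47.8), 48.7% for WI (48.5 to 48.8) and 42.5% for IR (42.3 to 42.8). Let-7a took 17.4%, 17.9% and 19.7%, and let-7c took 12.4%, 11.5% and 14.7%. The 3 intervals were separate for each of these members and for let-7i (4.43%, 3.80% and 4.81%). Let-7g took 11.9%, 11.7% and 11.2%, and only its IR interval stood apart. The same was true of miR-98-5p (0.826%, 0.866% and 0.990%) and of let-7b (2.50%, 2.39% and 2.79%). For let-7d (2.49%, 2.61% and 2.65%) and let-7e (0.556%, 0.528% and 0.607%) no library stood apart from both others.

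**Figure D3:**
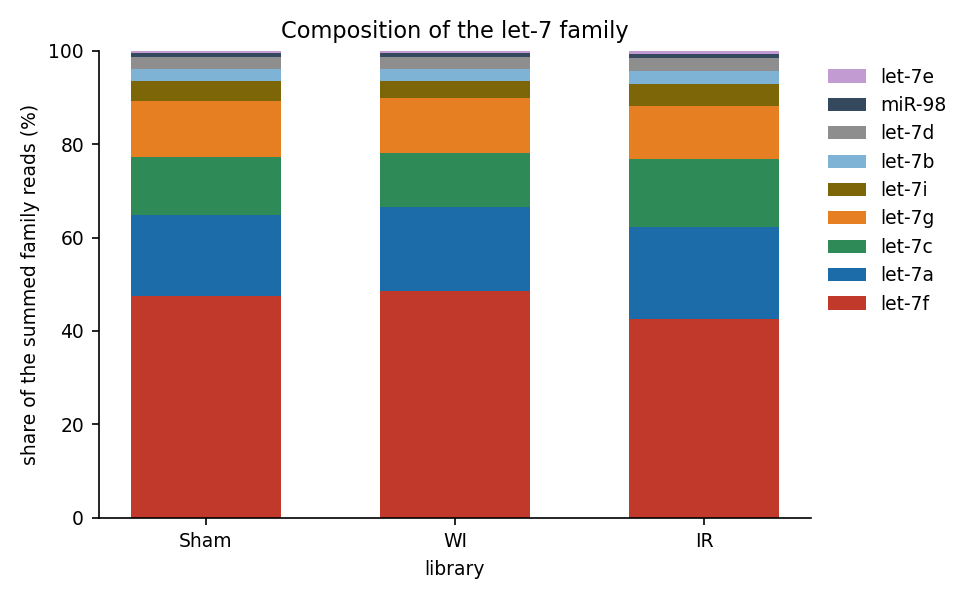
Share of each member in the summed let-7 family reads (y axis, percent) in each library, stacked to the whole. The let-7f segment at the bottom covers 47.6% in Sham, 48.7% in WI and 42.5% in IR.

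Because shares must add to the whole, each member was also set against let-7a. Sham had 2.74 let-7f reads per let-7a read (95% counting interval 2.70 to 2.77), WI 2.71 (2.68 to 2.74) and IR 2.15 (2.13 to 2.18). Sham and WI overlapped and IR was lower. For let-7g the ratios were 0.683 (0.672 to 0.694), 0.652 (0.643 to 0.662) and 0.568 (0.558 to 0.579). For let-7c they were 0.714, 0.640 and 0.742, and for let-7i 0.255, 0.212 and 0.244, so WI was the lowest for both. MiR-98-5p did not part from let-7a beyond counting error, with 0.0476, 0.0483 and 0.0501 and overlapping intervals.

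Hairpins that lie together can be cut from 1 transcript, so clustered members were set side by side. In the intron of Huwe1, let-7f-2 lies 785 bases from mir-98. Sham had 57.6 let-7f reads per miR-98-5p read (95% counting interval 54.8 to 60.5), WI had 56.2 (53.9 to 58.5) and IR had 42.9 (40.9 to 45.1). In the cluster on chromosome 13, let-7f per let-7d read was 19.1, 18.6 and 16.1. Since let-7f counts join both of its hairpins, neither ratio belongs to 1 cluster alone.

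The cluster on chromosome 17 holds mir-99b, let-7e and mir-125a, with 94 bases between mir-99b and let-7e and 367 between let-7e and mir-125a. MiR-99b-5p had 19913 (Sham), 20550 (WI) and 13397 reads (IR), and miR-125a-5p had 17159, 21577 and 11309. From Sham to IR, miR-99b-5p was at -0.52 (SE 0.02) and miR-125a-5p at -0.55 (SE 0.02) on the log2 scale, while let-7e was at -0.04 (SE 0.06). Let-7e reads per miR-125a-5p read were 0.0633 (0.0596 to 0.0674), 0.0661 (0.0627 to 0.0698) and 0.0902 (0.0846 to 0.0962). Per let-7a read, from which let-7e differs only by U9G, they were 0.0320 (0.0301 to 0.0340), 0.0294 (0.0279 to 0.0310) and 0.0307 (0.0289 to 0.0327). The last 3 intervals overlap. Whether some let-7a reads were counted as let-7e was not tested.

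The other neighbours also parted from their let-7 members. MiR-100-5p, whose hairpin lies 5211 bases from let-7a-2, was at -0.41 (SE 0.02) in WI versus Sham and -0.46 (SE 0.02) in IR versus Sham, where let-7a was at 0.22 and 0.02. MiR-99a-5p, whose hairpin lies 656 bases from let-7c-1, was at -0.36 (SE 0.04) and -0.14 (SE 0.04), where let-7c was at 0.06 and 0.07. Of the 11 mature microRNAs of these neighbours, 4 were lower and 0 higher at p under 0.01 in WI versus Sham with TMM, where 12.3% of all tested and 53.7% of the abundant microRNAs passed in either direction. In IR versus Sham (16.0% of all tested, 58.1% of the abundant), 6 were lower and 0 higher. In IR versus WI (18.9% and 61.8%), 3 were lower and only miR-99a-5p was higher, at 0.21, a value that the shift of -0.32 with aligned reads turns below 0. MiR-125b-5p, with 5569, 5978 and 4774 reads, was at -0.19 in WI and -0.17 in IR from Sham, and its hairpins lie 45114 bases or more from let-7. With TMM, the only one past both criteria was miR-125a-3p, in IR versus each of the others, with 26 (Sham), 27 (WI) and 7 reads (IR). The rare arms miR-99a-3p (47, 79 and 63 reads), miR-99b-3p (35, 39 and 30), miR-125b-1-3p (61, 54 and 39) and miR-125b-2-3p (320, 432 and 325) did not pass at p under 0.01 in any comparison.

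**Figure D4:**
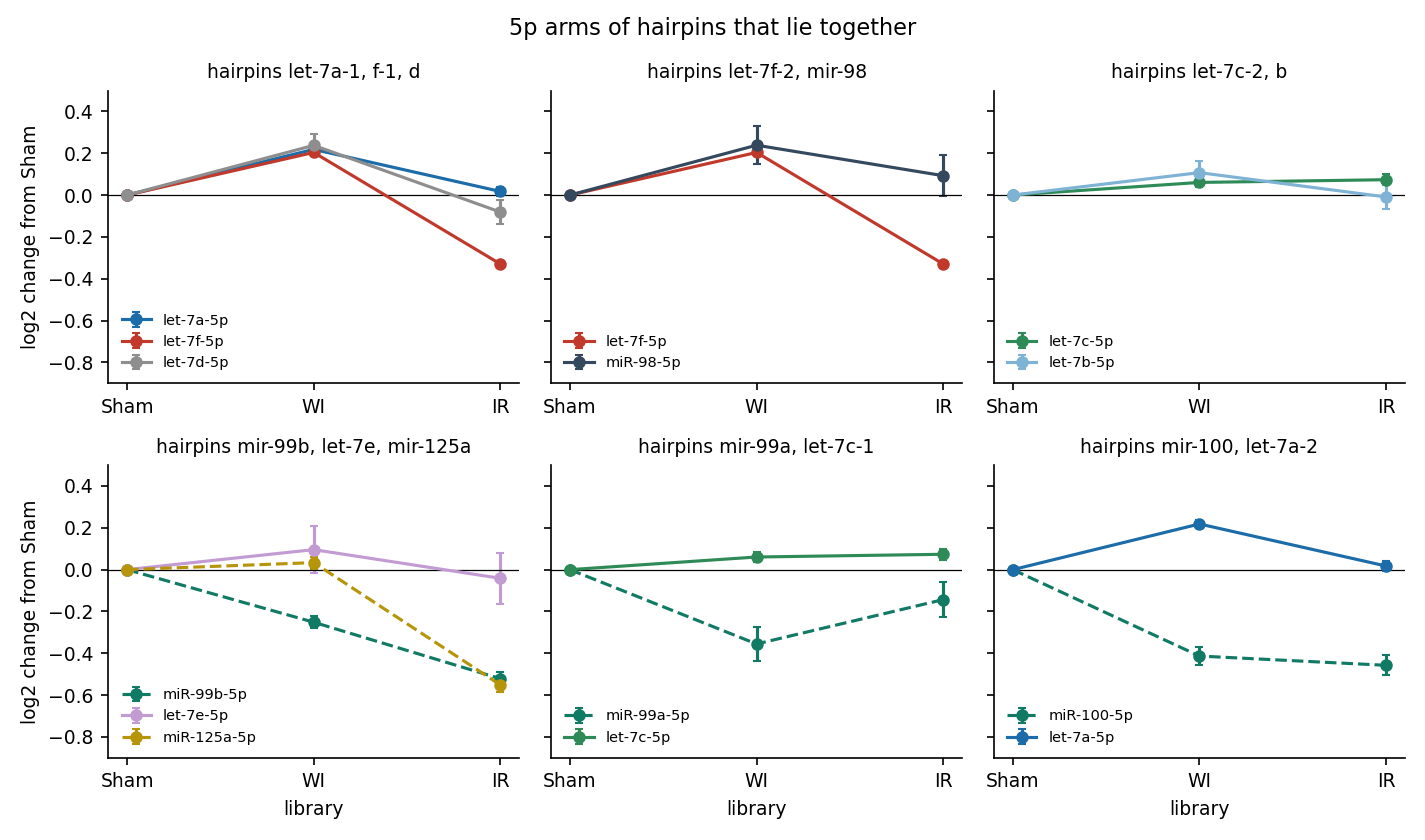
Log2 change from Sham (y axis) of the 5p arms of hairpins that lie together, 1 panel per cluster, with 95% intervals from read counts. Counts of let-7a, let-7c and let-7f each join 2 hairpins, so their lines do not belong to 1 panel alone. Solid lines are let-7 members and dashed lines are neighbours of the mir-99, mir-100 and mir-125 kind; let-7e stays near 0 in IR where miR-99b-5p and miR-125a-5p lie near -0.5.

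The 3p arms, the opposite strands of the same hairpins, were far rarer. For each 3p read of let-7f there were 404 of the 5p arm in Sham (95% counting interval 355 to 460), while WI had 406 (364 to 453) and IR 395 (341 to 457). These intervals overlap. Let-7d was the least one-sided hairpin, with 4.72, 4.75 and 4.29 reads of 5p per 3p. Let-7g was the most, with 892, 704 and 629, based on only 26, 45 and 30 reads of 3p. Intervals of the ratio overlapped between all libraries for every letter but let-7c, where WI had 123 (108 to 139) and IR 184 (155 to 218).

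Among the 12 rows of 3p arms, 2 were higher at p under 0.01 in WI versus Sham and 0 lower with TMM, a share near the 12.3% of all tested that passed. These were let-7b-3p (166 and 277 reads, log2 fold change 0.44) and let-7d-3p (1033 and 1487 reads, 0.23). In IR versus WI, 5 were lower and 0 higher with TMM, where 18.9% of all tested passed. In IR versus Sham 0 of 12 passed, where 16.0% did. These arms were not counted with the other scalings. Let-7f-1-3p, with 145 reads (WI) and 79 (IR), was at -0.53 (SE 0.20, Fisher's exact p = 0.00859). Let-7f-2-3p, with 179 and 102, was at -0.46 (SE 0.18, Fisher's exact p = 0.00968). Both p-values lay just under 0.01. The 5p arm of let-7f was at -0.53 in the same comparison. Let-7e-3p, with 27 (Sham), 34 (WI) and 13 reads (IR), did not pass in IR versus Sham (-0.98, SE 0.49, Fisher's exact p = 0.0397). Let-7i-3p (33, 49 and 40 reads) and miR-98-3p (24, 40 and 18) did not pass in any comparison, and neither did let-7g-3p. With TMM, no 3p arm passed both criteria.

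A pair of these rows holds nearly the same counts. Let-7a-1-3p and let-7c-2-3p have 1 sequence, shown because that sequence alone cannot separate them.
mmu-let-7a-1-3p: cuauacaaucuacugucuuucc
mmu-let-7c-2-3p: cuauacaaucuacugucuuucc
They were listed with 155 and 155 reads in Sham, 248 and 247 in WI, and 131 and 131 in IR. They therefore count as 1 among the 5 that were lower in IR versus WI, and the 5p to 3p ratios of let-7a and let-7c rest on nearly the same 3p reads.

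Another 3 rows carry the let-7 name or seed and are not members. They are shown because their ends or seeds set them apart.
mmu-let-7j: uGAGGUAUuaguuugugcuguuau
mmu-let-7k: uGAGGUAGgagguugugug
mmu-miR-1961: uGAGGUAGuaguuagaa
Let-7j does not have the let-7 seed, but over 22 bases it differs from let-7i only by G8U. It had 1190 (Sham), 1565 (WI) and 1167 reads (IR), which is 0.137, 0.152 and 0.144 per let-7i read. Their intervals overlap, and whether let-7i reads entered the let-7j row was not tested. Let-7j did not pass at p under 0.01 in any comparison, with log2 fold changes of 0.10, -0.08 and 0.02. Let-7k had 1, 2 and 1 reads, and miR-1961 had 0 in each library, which allows a level of up to 0.758 (Sham), 0.617 (WI) and 0.785 CPM (IR). Together with the 9 members, let-7k and miR-1961 were the 11 mature mouse microRNAs in the RefSeq table with this seed.

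MicroRNAs outside the family were ordered by how near their log2 changes in WI and IR from Sham lay to those of the family sum, a distance that the scaling does not alter. Over the 3 libraries and among 127 candidates with at least 1000 reads, the nearest was miR-423-5p (1840, 2551 and 1574 reads, distance 0.0076). It was followed by miR-143-3p (0.049), miR-148a-3p (0.080), miR-15a-5p (0.097) and miR-26b-5p (0.099). MiR-143-3p, typical of smooth muscle and stromal cells, was at 0.12 in WI and -0.17 in IR, against 0.17 and -0.17 for the family sum. Of the other stromal rows, miR-199a-3p was nearly level from Sham to WI and lower in IR, with 685 (Sham), 696 (WI) and 620 CPM (IR). MiR-145a-5p (133, 130 and 126) was also nearly level from Sham to WI. MiR-199a-5p (215, 198 and 217) and miR-214-3p (40.2, 34.7 and 46.5) were lower in WI than in Sham.

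**Figure D5:**
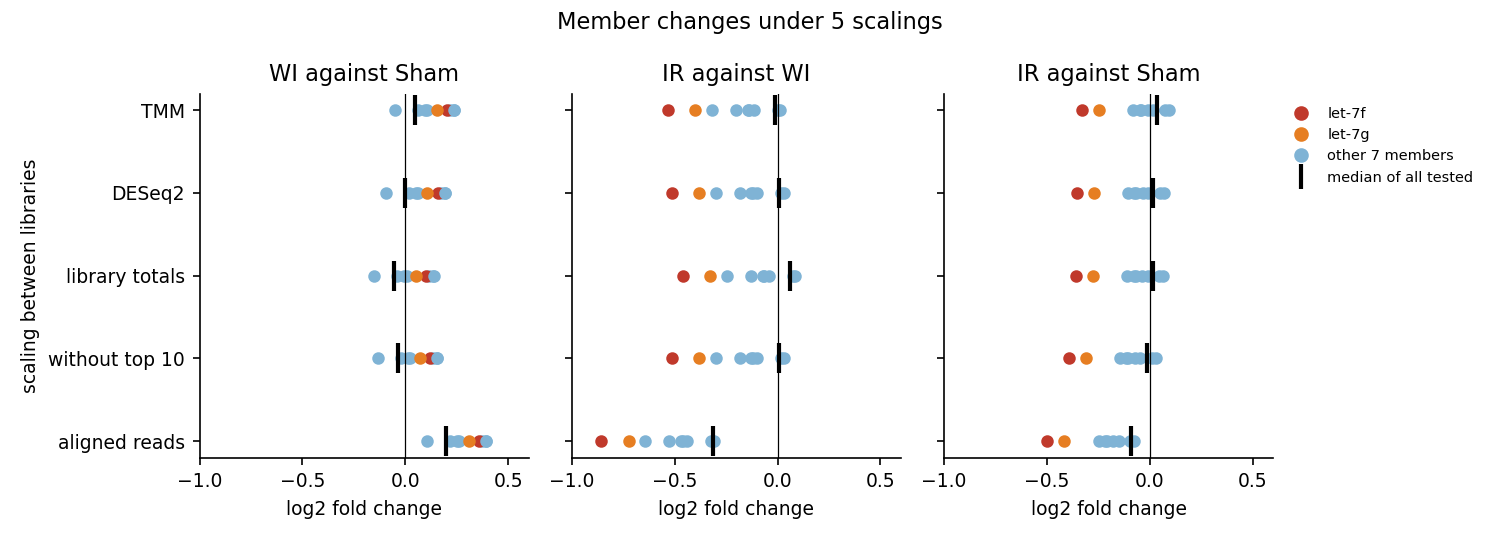
Log2 fold change (x axis) of the 9 members under 5 scalings between libraries (y axis), with let-7f and let-7g in red and orange, the other members in light blue and the median of all tested microRNAs as a black bar. Each scaling slides all members together, so let-7f stays the lowest member in IR versus WI and IR versus Sham, while members near 0 change sides.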

How the data were processed

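Small RNA of mouse liver was sequenced in 3 libraries, which were grouped by the titles in the labels. The files deposited by the authors hold whole-number counts of reads, not normalised, for each mature microRNA. The authors trimmed adaptors, selected reads by length, aligned them with Bowtie 0.12.7 allowing 1 mismatch and dropping reads with many matches, sorted RNA classes with HTSeq without strand and counted with miRDeep2. The build was mm9 in the methods of the study and mm10 in the submitters' processing notes. Counting may place a read under near-identical names, and no step that removes PCR copies is stated, so every interval reflects read sampling alone.

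Counts were scaled with TMM factors (edgeR 4.0.16, R 4.3.3) of 1.03 (Sham), 0.961 (WI) and 1.01 (IR). Log2 fold changes used CPM + 0.1, which understates changes of rare microRNAs. All microRNAs with at least 1 read in either library were tested by a two-sided Fisher's exact test (scipy 1.17.1), with the thresholds of the study (fold change above 1.5, p under 0.01). The quasi-likelihood test of edgeR has no residual degrees of freedom here. The study scaled by mapped reads, whose class is not stated, so totals of microRNA reads were used and totals of aligned reads, taken from the study, were an alternative. The calling procedure was tested on simulated counts with planted changes larger than that of any member, without TMM scaling or variation between animals. That test says nothing of changes as small as those of the members. Other alternatives were DESeq2 1.42.0 size factors, other totals, filters, pseudocounts, thresholds and assumed variation between animals. Hairpins were placed by exact match of RefSeq sequences to mm9, or from GENCODE for mir-99b and mir-125b-2. Named were all members, 3p arms and clustered neighbours with at least 50 reads, and the 5 profiles nearest to the family sum. Let-7k and miR-1961, outside this rule, and the miR-142 arms, added to the leukocyte markers, were named after their values were seen. Members and lists were chosen with earlier results of these data known.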

Additional observations from a re-analysis of the deposited data

How the results depend on the processing

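With 1 library per group, replicates could not be left out. No paired analysis was possible because no group has a second library. Only the 4 other scalings could change the sign of a member or give it a call. Of their 108 member values, 91 kept sign and call, 3 gained a call and 14 changed sign. The other 243 values, from filters, pseudocount, thresholds and assumed variation, could gain no call without a fold above 1.5, which no member had, and say nothing of stability. The sign changes were let-7c in WI versus Sham (-0.040 with library totals, -0.022 without the 10 most abundant), in IR versus WI (-0.31, aligned reads) and in IR versus Sham (-0.095, aligned reads); let-7e in WI versus Sham (-0.0050, library totals); let-7i in WI versus Sham (0.11, aligned reads) and in IR versus WI (0.018 with DESeq2, 0.073 with library totals, 0.018 without the 10 most abundant); let-7a in IR versus Sham (-0.0090 with DESeq2, -0.011 with library totals, -0.047 without the 10 most abundant, -0.15 with aligned reads); and miR-98-5p in IR versus Sham (-0.076, aligned reads).

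The summed family in WI versus Sham, IR versus WI and IR versus Sham was at 0.13, -0.32 and -0.19 with DESeq2, at 0.070, -0.27 and -0.20 with library totals, at 0.088, -0.32 and -0.23 without the 10 most abundant, and at 0.33, -0.66 and -0.34 with aligned reads. It was at 0.14, -0.18 and -0.036 without let-7f, at 0.18, -0.46 and -0.28 with linked members counted once by the largest, and at 0.14, -0.12 and 0.021 without let-7f and let-7g, a setting chosen after seeing the data. With the 10 most abundant microRNAs, let-7f among them, left out of both the family and the total, the family share was 11.4%, 11.8% and 10.6% in Sham, WI and IR, and with let-7f kept it was 1.82%, 2.28% and 1.44% of aligned reads.

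The numbers called over all microRNAs were 15, 73 and 55. With TMM 11 of 15 calls were higher in WI than in Sham, 49 of 73 higher in IR than in WI, and 44 of 55 higher in IR than in Sham. With aligned reads the calls were 23 of 25, 38 of 111 and 35 of 62, and with library totals 7 of 17, 52 of 70 and 42 of 55. In WI versus Sham 33 were called at p under 0.05 and 9 at a fold above 2, a limit that gave 35 in IR versus Sham. With an assumed coefficient of variation of 0.2 the numbers were 4, 33 and 24, and with 0.4 they were 1, 6 and 10.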
